A study of Mus musculus with 30 samples.

Results

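Livers of mice given sulindac while on CD-HFD, the choline-deficient high-fat diet of a model of fatty liver disease that can progress to hepatocellular carcinoma (HCC), were compared with healthy livers of mice on chow. The arrays were chosen by their titles, which gave 10 sulindac mice and 5 chow mice, 15 of the 30 mice of the series. RNA came from frozen liver outside tumours and was hybridised to Affymetrix HT MG-430 PM arrays, 1 array per mouse. Per the labels, sulindac was given prophylactically and the liver status was chronic damage, and no label says which sulindac mice developed HCC. The chow mice carry the treatment label vehicle. The series also holds 6 mice on CD-HFD given aspirin with clopidogrel and 9 on CD-HFD given vehicle, 5 without HCC and fibrosis and 4 with both. The labels name no strain, sex, age, dose, length of diet, batch or time of collection. The sulindac mice differed from the chow mice in diet and in drug at once, and the contribution of each cannot be told apart in that comparison. The 9 vehicle mice shared the diet, and values of sulindac minus vehicle are given where they bear on a gene. Their animal numbers are of another form, as described below, so these values are not taken as effects of the drug alone.

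Sulindac is a non-steroidal anti-inflammatory drug that inhibits the cyclooxygenases, the enzymes that start prostaglandin synthesis. It is a prodrug: the sulfoxide is reduced in the body to the active sulfide and oxidised to a sulfone. A diet without choline limits phosphatidylcholine synthesis and with it the export of fat from hepatocytes as very low density lipoprotein, so that triglyceride builds up in the liver and inflammation and fibrosis can follow. The liver also runs a strong circadian programme, in which repressors such as Cry1 and the Nr1d receptors and activators such as Arntl and Dbp peak at different hours of the day.

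Values are log2 of the deposited intensity, with 1 probe set per gene and 17097 genes. Differences are sulindac minus chow on the log2 scale, tested with limma across all 30 arrays with Benjamini-Hochberg adjustment over all genes, and a gene passed where its adjusted p was under 0.05. Hepatocyte genes were bright on all 15 arrays: Alb averaged 13.56 ± 0.04 in sulindac livers and 13.53 ± 0.01 in chow livers (SD, n = 10 and n = 5), and Ttr 13.10 ± 0.05 and 13.12 ± 0.03. None of the 18 measured hepatocyte genes passed, and 1 fell in a fit without the chow mice Hlth_1798 and Hlth_1807 described below. In bulk liver, fewer cells of a type and less RNA per cell cannot be told apart.

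Chow mice Hlth_1798 and Hlth_1807, as titled, stood apart from the other 3 chow mice. The root mean square distance over all genes was 0.457 from Hlth_1798 to the sulindac mean, against 0.549 to the mean of the other chow mice, and for Hlth_1807 it was 0.482 against 0.526. The other 3 chow mice lay 0.405 to 0.415 from the sulindac mean and 0.307 to 0.328 from the chow mean. Both are labelled as healthy chow controls like the other 3. Both lay farther from the sulindac mean than the other 3 chow mice did. For Cry1, Wdfy1 and Nnt they lay with those 3, and for Col3a1 and Saa1 within or above the sulindac range. Whether their labels are right was not tested and could not be settled from the files. Each chow mean includes both mice unless stated. Results are also given without Hlth_1798 and Hlth_1807. This pair was picked from these same values, so counts and adjusted p without it are a description and not independent support. Sulindac mouse 17 had muscle RNA: the mean level of 12 skeletal muscle genes was 3.15 above the chow mean there, while it lay between -0.05 and 0.05 in the other 9 sulindac mice and between -0.05 and 0.04 in chow mice. Without this mouse 418 genes passed, and none of the 12 muscle genes passed with it.

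A total of 510 of 17097 genes passed (2.98%), of which 341 were higher in sulindac livers (1.99%) and 169 lower (0.988%). Over all genes the median change was 0.01 and 52.8% of changes were positive. The median size of the changes that passed was 0.44, and 39 changed by at least 1 on the log2 scale, 23 upwards and 16 downwards. The 10 sulindac values lay wholly above the 5 chow values for 155 genes (0.907%) and wholly below them for 70 genes (0.409%), so that the groups did not overlap for 225 genes (1.32%), of which 183 passed. An unadjusted p under 0.05 was reached by 2536 genes. Without Hlth_1798 and Hlth_1807, 1217 genes passed (7.12%), 764 higher (4.47%) and 453 lower (2.65%), and 358 of the 510 genes were among them. The split of higher and lower genes moved with scaling: 264 were higher and 203 lower after centring each array on its median, and 269 and 229 after a further quantile normalization.

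**Figure D1:**
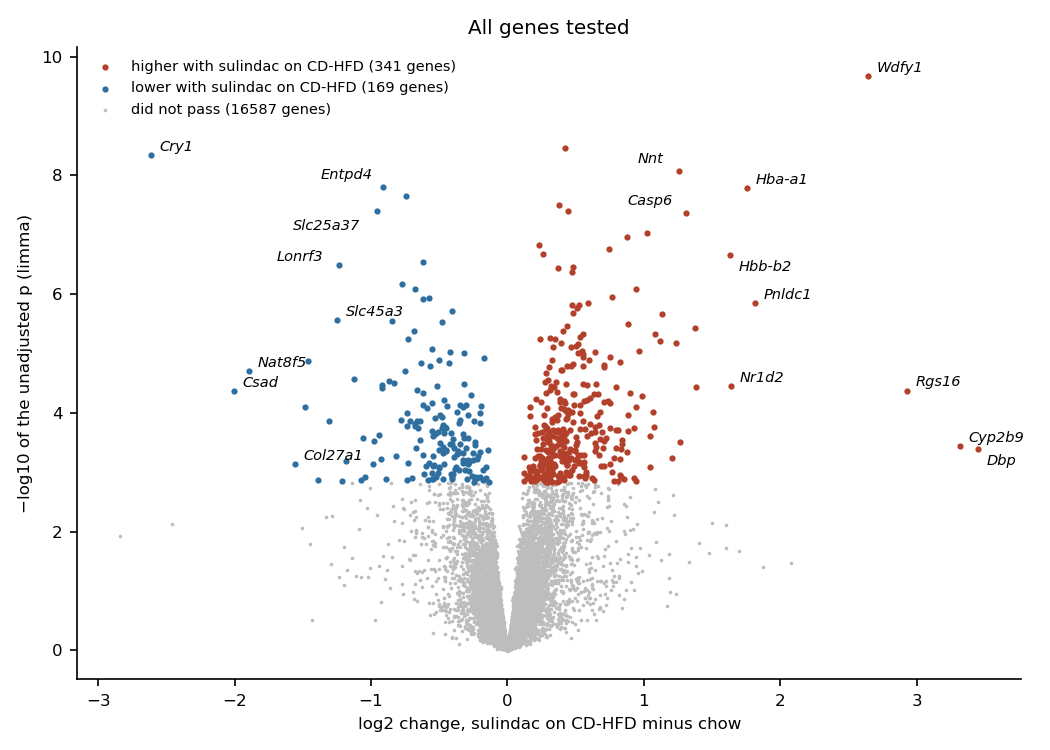
Each point is 1 gene, with the log2 change of sulindac on CD-HFD minus chow on the x axis and -log10 of the unadjusted limma p on the y axis; red and blue points passed the adjusted threshold. The 341 red points lie to the right and the 169 blue points to the left, with Dbp, Cyp2b9, Rgs16 and Wdfy1 farthest right and Cry1 farthest left among the coloured points.

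Among the genes that passed, Dbp had the largest rise and Cry1 the largest fall, and both are genes of the circadian clock. Dbp and Nr1d2 rose, and Cry1, Lonrf3 and Nfil3 fell, which makes 5 of the 22 measured genes of the clock list (22.7% against 2.98% of all genes). Without Hlth_1798 and Hlth_1807, 1 rose and 2 fell, where 7.12% of all genes passed. The clock list was written with earlier results of these data known, Cry1 among them, so its share is only a description. Rgs16 and Noct, whose transcripts cycle in mouse liver, also changed. The upstream sequences of 4 of these genes are shown because Cry1 and Lonrf3, which fell together, each hold an E-box (CACGTG), the letters bound by the clock activators Clock and Arntl, while Nr1d2 and Nfil3, which moved in opposite directions, each hold a nuclear receptor half-site (AGGTCA, or TGACCT on the other strand), the core of the site bound by Rora and the Nr1d receptors. Each is the 250 bases before the transcription start, from RefSeq on GRCm38.p6, written 5′ to 3′ on the gene's strand with the match in capitals.
Cry1 (chr10:85185055-85185304, minus strand): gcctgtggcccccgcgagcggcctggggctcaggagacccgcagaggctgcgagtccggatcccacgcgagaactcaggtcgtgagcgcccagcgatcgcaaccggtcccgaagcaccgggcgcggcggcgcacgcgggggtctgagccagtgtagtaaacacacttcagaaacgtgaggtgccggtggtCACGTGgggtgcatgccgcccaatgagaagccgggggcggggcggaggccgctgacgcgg
Lonrf3 (chrX:36328159-36328408, plus strand): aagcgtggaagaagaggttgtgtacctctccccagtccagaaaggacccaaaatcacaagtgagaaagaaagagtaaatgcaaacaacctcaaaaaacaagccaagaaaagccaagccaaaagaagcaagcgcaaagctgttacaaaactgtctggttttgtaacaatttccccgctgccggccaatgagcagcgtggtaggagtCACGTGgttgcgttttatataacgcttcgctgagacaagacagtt
Nr1d2 (chr14:18239107-18239356, minus strand): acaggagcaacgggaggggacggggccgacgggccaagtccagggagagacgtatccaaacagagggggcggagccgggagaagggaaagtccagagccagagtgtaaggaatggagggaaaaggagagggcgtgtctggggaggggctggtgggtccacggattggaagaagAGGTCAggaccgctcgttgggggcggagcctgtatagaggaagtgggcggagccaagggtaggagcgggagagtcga
Nfil3 (chr13:52981040-52981289, minus strand): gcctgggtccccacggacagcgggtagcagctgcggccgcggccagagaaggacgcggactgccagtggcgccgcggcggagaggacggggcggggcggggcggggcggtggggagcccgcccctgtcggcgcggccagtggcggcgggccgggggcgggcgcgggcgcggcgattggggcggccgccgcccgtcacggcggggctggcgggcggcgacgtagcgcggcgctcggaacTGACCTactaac
The E-box began 60 bases before the start of Cry1 and 45 before that of Lonrf3, and the half-site 77 bases before the start of Nr1d2 and 12 before that of Nfil3. Both motifs were searched on both strands, and they share no letters that would let 1 match count for both. Of 32851 promoters in the table, 6.02% held the E-box and 14% the half-site in the same window. No match was found in the windows of Dbp, Rgs16, Noct, Arntl and Per3. A match is a description of these letters and not a measured binding site.

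Cry1, a repressor of Clock and Arntl, had values of 4.94 (lowest), 5.56 (median) and 6.90 (highest) in the 10 sulindac livers, against 8.33, 8.21, 8.15, 8.28 and 8.58 in the 5 chow livers. Every sulindac value lay below every chow value. The change was -2.61 ± 0.31 (SE), a 6.10-fold lower intensity (adjusted p = 2.56e-05), and it stayed past the threshold in each fit that left out 1 mouse. Lonrf3, a RING finger protein whose transcript cycles in liver, had values of 5.30, 5.54 and 6.34 (lowest, median, highest) in sulindac livers, against 6.77, 6.76, 6.82, 6.61 and 7.35 in chow livers. These groups did not overlap either (change -1.23 ± 0.18, adjusted p = 0.00029). Nfil3, a repressor that competes with Dbp for the same DNA sites, lay between 6.03 and 7.46 in sulindac livers and between 7.61 and 8.0 in chow livers, a change of -1.18 ± 0.31 (adjusted p = 0.0308) that missed the threshold in 6 of the 15 fits that left out 1 mouse (adjusted p up to 0.0777).

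Dbp, an activator of liver output genes, had values of 5.29, 9.33 and 10.20 (lowest, median, highest) in sulindac livers, against 4.74, 6.04, 5.45, 6.19 and 4.63 in chow livers. Sulindac mouse 15 had the lowest sulindac value, and the other 9 sulindac values were above every chow value. The change was 3.45 ± 0.86, an 11.0-fold higher intensity (adjusted p = 0.0237), and it missed the threshold without Hlth_1807 or without Hlth_1965 (adjusted p up to 0.0591) and without Hlth_1798 and Hlth_1807 together (2.97, adjusted p = 0.0888). Nr1d2, a haem-binding repressor of Arntl, had values of 9.54, 10.39 and 10.69 in sulindac livers, against 6.79, 9.48, 9.0, 9.49 and 8.63 in chow livers. The sulindac values lay above all chow values, and Hlth_1798 was the lowest (change 1.64 ± 0.33, adjusted p = 0.00582, and 1.0 without Hlth_1798 and Hlth_1807). Rgs16, a regulator of G protein signalling, had values of 7.25, 9.64 and 10.18 in sulindac livers, against 6.59, 5.57, 5.22, 7.07 and 7.49 in chow livers, a 7.62-fold higher intensity (change 2.93 ± 0.60, adjusted p = 0.00649).

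Sulindac mouse 15 stood apart from the other 9 in these genes. Its Dbp was 5.29 and its Arntl 7.17, whereas the other 9 sulindac mice had Dbp between 7.76 and 10.20 and Arntl between 4.43 and 5.21. Chow livers had Arntl values of 7.10, 6.07, 6.08, 5.97 and 6.30, and the change of Arntl, the partner of Clock, did not pass (-1.33 ± 0.44, adjusted p = 0.105). High Dbp with low Arntl was also seen in 2 vehicle mice with HCC, at 10.00 and 10.20 for Dbp and 4.31 and 4.43 for Arntl, while the other 7 vehicle mice had Dbp between 4.37 and 5.20 and Arntl between 6.82 and 7.58. Noct, a deadenylase-like protein with a daily rhythm, lay between 8.28 and 9.61 in sulindac livers and 9.44 and 10.71 in chow livers (change -1.07 ± 0.30, adjusted p = 0.0472, lost in 11 of the 15 fits that left out 1 mouse). Per2, Per3, Tef and Npas2 did not pass, with changes of -0.90, 0.68, 0.42 and -0.46. Sulindac minus vehicle, a test that 34 of all genes passed (0.199%), passed for Cry1 (-1.56, adjusted p = 0.00407) and Lonrf3 (-0.84, adjusted p = 0.00909) and not for Dbp (2.91, adjusted p = 0.0681) or Nr1d2 (1.06, adjusted p = 0.0925). Cry1 lay at 7.12 to 8.99 in the 5 vehicle mice without HCC, and at 6.76, 6.35, 5.51 and 5.55 in the 4 with HCC. Lonrf3 lay at 6.53 to 7.72 in the 5 without HCC, and at 5.81, 6.18, 5.45 and 5.27 in the 4 with HCC. For both genes the vehicle mice with HCC were within or just below the sulindac range. Mice given aspirin with clopidogrel had 5.58 to 7.19 for Cry1 and 5.31 to 5.96 for Lonrf3. The hour of collection is not in the labels, and its part in these values was not tested.

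**Figure D2:**
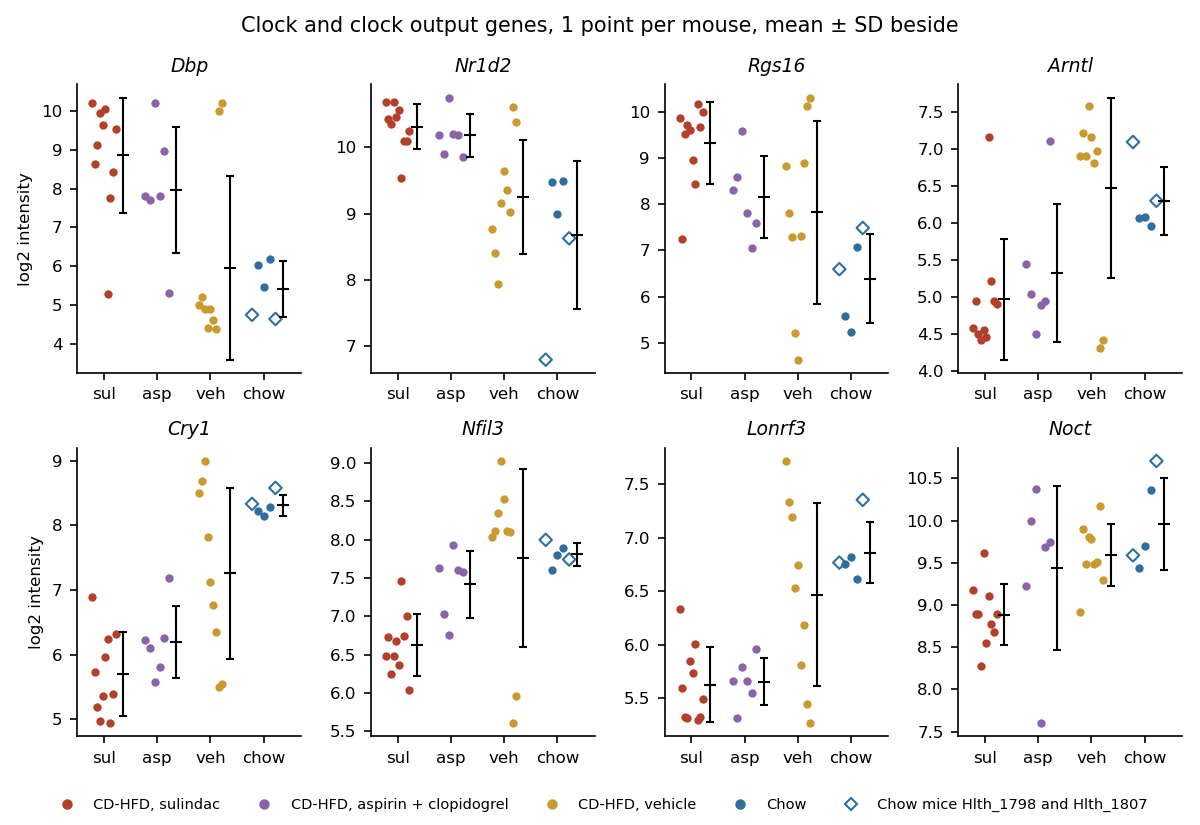
Log2 intensity of 8 clock and clock output genes, 1 point per mouse, with the mean and SD (black) beside each group; sul, asp and veh are sulindac, aspirin with clopidogrel and vehicle on CD-HFD, and diamonds are chow mice Hlth_1798 and Hlth_1807. Cry1 and Lonrf3 in sulindac livers lie below every chow liver, and the vehicle mice split into separate clusters.

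Wdfy1, an endosomal protein that binds phosphatidylinositol 3-phosphate, had the smallest p of all genes. Its values were 7.50, 7.65 and 8.04 (lowest, median, highest) in sulindac livers, against 4.87, 5.06, 5.01, 5.33 and 4.96 in chow livers. Every sulindac liver was above every chow liver, and the gap between the groups was wider than the range within either. The change was 2.65 ± 0.27, a 6.26-fold higher intensity (adjusted p = 3.59e-06), and the 4 Wdfy1 probe sets had changes in 1 direction, with the dimmest at 0.23 and not past the threshold (adjusted p = 0.0716). The vehicle mice lay between 4.80 and 5.70, so sulindac minus vehicle was nearly as large (2.50, adjusted p = 2.58e-07). The 6 mice given aspirin with clopidogrel split, with 7.85, 7.63 and 7.62 in 3 mice, 6.32 and 6.45 in a further 2, and 5.04 in mouse 60.

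Nnt, the mitochondrial transhydrogenase that makes NADPH, rose to values of 10.55, 10.65 and 10.87 (lowest, median, highest) in sulindac livers, against 9.52, 9.25, 9.27, 9.36 and 9.71 in chow livers. The gap between the groups was wider than the range within either (change 1.26 ± 0.15, adjusted p = 3.62e-05), and sulindac minus vehicle was 0.97 (adjusted p = 0.000145). Slc25a37, the mitochondrial iron importer, and Entpd4, a Golgi nucleotide hydrolase, lie close to each other on mouse chromosome 14 in the RefSeq table, with Synb between them, and fell together. Slc25a37 had values of 8.20, 8.40 and 8.61 in sulindac livers, against 9.06, 9.24, 9.34, 9.38 and 9.74 in chow livers (change -0.96 ± 0.13, adjusted p = 6.78e-05). Another Slc25a37 probe set, with a mean of 7.72, changed by -0.24 and did not pass (adjusted p = 0.554). A dimmer one changed by -0.39 (adjusted p = 0.0207). Entpd4, named after its values were seen, had 6.01, 6.19 and 6.32 in sulindac livers, against 6.82, 6.92, 7.17, 7.30 and 7.35 in chow livers (change -0.91 ± 0.12, adjusted p = 4.66e-05), and its dimmer probe set did not pass (0.0027, adjusted p = 0.992). Neither gene overlapped between the groups. Vehicle livers lay with the chow livers for both, at 9.09 to 9.49 for Slc25a37 and 6.63 to 7.27 for Entpd4.

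Further genes also passed, and of these Srp54a, Srp54c and Plekhj1 were named after their values were seen. Srp54a and Srp54c, near-identical copies of a signal recognition particle subunit whose probes cannot be assigned to 1 copy, rose by 0.51 and 0.55 (adjusted p = 0.0009 and 0.00171), and by 0.41 and 0.49 against vehicle. Plekhj1, a pleckstrin homology domain protein, lay between 5.10 and 5.61 in sulindac livers, against 4.50 to 4.94 in chow livers and 4.37 to 4.76 in vehicle livers. Pisd-ps3, a pseudogene of the phosphatidylserine decarboxylase gene whose probes may also read the parent gene, fell to 5.02 to 5.84 in sulindac livers, against 6.43 to 7.46 in chow livers (change -1.46 ± 0.28, adjusted p = 0.00308). Vehicle livers spanned 4.99 to 7.16 for Pisd-ps3, and it did not pass sulindac minus vehicle. Nnt is known to differ between substrains of the C57BL/6 mouse, as background. In mice given aspirin with clopidogrel, Nnt lay at 9.70 and 9.92 in mice 60 and 62, within the vehicle range, and at 10.65 to 10.92 in the other 4. The animal numbers in the titles have 2 digits for sulindac mice (15 to 29) and for mice given aspirin with clopidogrel (58 to 64), and 3 or 4 digits for vehicle and chow mice, and the labels do not say what the numbers stand for. Drug and any difference in the origin of the animals cannot be told apart for these genes, nor for any other gene compared with vehicle or chow.

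**Figure D3:**
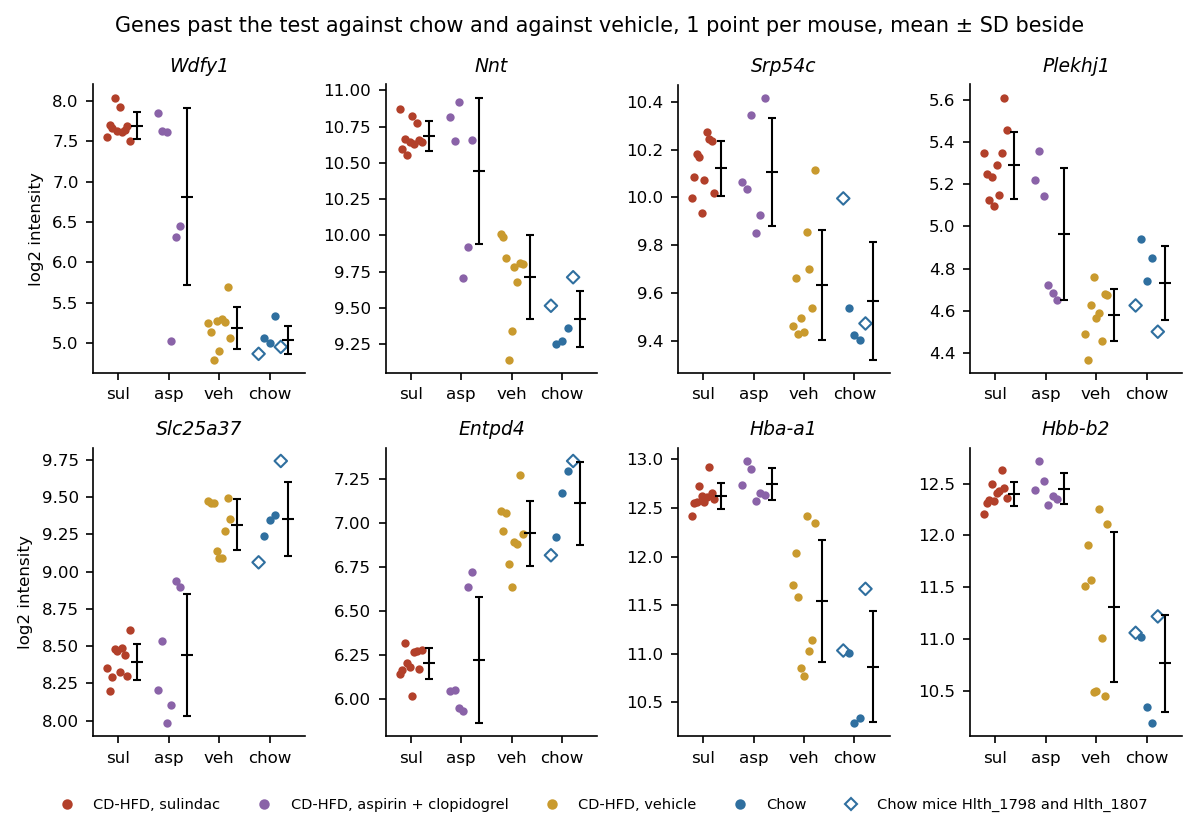
Log2 intensity of 8 genes that passed the test against chow and the test against vehicle, 1 point per mouse, with the mean and SD (black) beside each group; diamonds are chow mice Hlth_1798 and Hlth_1807. Wdfy1 in sulindac livers lies at 7.50 to 8.04, with no vehicle or chow liver above 5.70, and mice given aspirin with clopidogrel fall at several levels.

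Haemoglobin transcripts were higher in sulindac livers. Hba-a1, the alpha globin gene, had values of 12.42, 12.60 and 12.92 (lowest, median, highest) in sulindac livers, against 11.03, 11.01, 10.28, 10.34 and 11.67 in chow livers. The lowest sulindac liver was above the highest chow liver (change 1.76 ± 0.22, adjusted p = 4.66e-05). Hbb-b2, a beta globin gene, had values of 12.21, 12.39 and 12.64 in sulindac livers, against 11.06, 11.02, 10.34, 10.19 and 11.22 in chow livers, again without overlap (change 1.63 ± 0.24, adjusted p = 0.000218). Probe sets of globin genes can read several near-identical copies, so the copy is uncertain, and 2 dimmer Hbb-b2 probe sets did not pass. These were the 2 genes that passed among 13 measured red cell genes (15.4% against 2.98% of all genes), and the list's median change was 0.03, against 0.01 over all genes. Sulindac minus vehicle passed for Hba-a1 and Hbb-b2 (1.08 and 1.09, adjusted p = 0.00469 and 0.00909). Vehicle livers spanned 10.77 to 12.41 and 10.44 to 12.26. Mice given aspirin with clopidogrel were as high as sulindac mice, at 12.57 to 12.98 and 12.30 to 12.72. Drug and any difference in the origin of the animals cannot be told apart for these 2 genes either. The part of blood left in the tissue was not tested. Tfrc, the transferrin receptor, lay between 6.90 and 8.90 in sulindac livers and 8.46 and 9.92 in chow livers (change -1.21 ± 0.34, adjusted p = 0.0485), and missed the threshold in 11 of the 15 fits that left out 1 mouse. Together with Slc25a37 it made 2 of 23 measured genes of BMP signalling and iron handling that passed, both lower (8.7% against 2.98% of all genes). In that list 3 rose and 1 fell without Hlth_1798 and Hlth_1807. Blvrb, which reduces biliverdin and flavins and was named after its values were seen, fell by 0.55 without overlap (adjusted p = 0.00241).

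The chow group was split in immune and matrix genes. With all 5 chow mice in the fit, the share of genes that passed in these lists ran between 0% and 13%, against 2.98% of all genes. Of 27 measured collagen and matrix genes, 1 rose (Col14a1) and the list's median change was 0.14. The mean level of that list, relative to the chow mean, lay between -0.25 and 0.58 in sulindac livers, against 0.43 in Hlth_1798, 1.34 in Hlth_1807 and -0.69, -0.63 and -0.46 in the other 3 chow livers. Sulindac livers therefore lay above those 3 chow livers and below or among the remaining pair. Without Hlth_1798 and Hlth_1807, 11 of the 27 genes rose, where 4.47% of all genes did, and the median was 0.58. Both mice were high in this list, so more rises follow in part from leaving them out.

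Col3a1, which encodes type III collagen, shows the split. Its values were 8.91, 10.14 and 11.04 (lowest, median, highest) in sulindac livers, against 10.28 in Hlth_1798, 11.64 in Hlth_1807 and 6.07, 7.22 and 7.66 in the other 3. The change was 1.33 ± 0.59 with every chow mouse (adjusted p = 0.276) and 2.92 without Hlth_1798 and Hlth_1807 (adjusted p = 0.000227). Col14a1, a fibril-associated collagen, lay between 8.77 and 9.57 in sulindac livers and had 9.02, 7.77, 7.88, 7.93 and 9.39 in chow livers. It passed with a change of 0.84 ± 0.23 (adjusted p = 0.0452), missed the threshold in 11 of the 15 fits that left out 1 mouse, and changed by 1.37 without the pair (adjusted p = 0.000237). Col1a1 stayed near the lower end of the scale, at 4.25 to 4.83 in sulindac livers and 4.31 to 5.13 in chow livers.

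Macrophage genes had the same layout. None of 22 monocyte and macrophage genes passed with all chow mice (median change 0.24). Without Hlth_1798 and Hlth_1807, 10 rose (median 0.85), where 4.47% of all genes did. The list's mean level lay between -0.08 and 0.77 in sulindac livers, against 1.38 in Hlth_1798, 0.38 in Hlth_1807 and -0.50, -0.49 and -0.77 in the other chow livers. Cd68, a lysosomal macrophage marker, had values of 7.68, 8.29 and 8.68 in sulindac livers, against 9.65, 6.88, 6.90, 6.28 and 7.63 in chow livers. In the list of lipid-associated macrophage genes, 1 of 16 rose, the lysosomal protease Ctsl (0.31 ± 0.06, adjusted p = 0.0035), and 9 did without the pair, against 4.47% of all genes. The list's defining members Trem2 and Gpnmb did not pass: Trem2 lay between 4.71 and 5.32 in sulindac livers, against 5.93 in Hlth_1798 and 4.45 to 4.85 in the other 4 chow livers. None of 14 resident Kupffer cell genes passed, with Clec4f at 8.79 to 9.84 in sulindac livers and 6.36 to 10.72 in chow livers, and none of 12 neutrophil, 27 T and NK cell and 9 B and plasma cell genes did. Of these, 8, 24 and 6 were below the median gene in both groups, which limits what the arrays could show of them. Without Hlth_1798 and Hlth_1807, 1 Kupffer cell gene rose and 1 fell. In that fit 1 neutrophil gene and 1 B and plasma cell gene rose, and 1 T and NK cell gene fell.

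None of 10 MHC class II genes passed. Without Hlth_1798 and Hlth_1807, 5 rose, where 4.47% of all genes did (median change 0.83 against 0.18 with them). In the list of MHC class I and interferon-gamma response genes, 3 of 23 rose and none fell (1.99% and 0.988% of all genes). Iigp1, an immunity-related GTPase, had values of 11.50, 11.55 and 11.64 in sulindac livers, against 11.36, 11.34, 11.18, 11.35 and 11.02 in chow livers. The lowest sulindac liver was above the highest chow liver, though the change was small (0.31 ± 0.05, adjusted p = 0.00191). Irgm2, of the same GTPase family, rose by 0.68 ± 0.16 (adjusted p = 0.0189, and up to 0.0585 without Hlth_1804 or Hlth_1807), and H2-T23, a non-classical class I gene, by 0.24 ± 0.06 (adjusted p = 0.0341, lost in 7 of the 15 fits that left out 1 mouse).

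Of 30 type I interferon response genes, 28 had a positive change, with a median of 0.33, but 1 passed. Ifih1, the RNA sensor MDA5, had values of 7.96, 8.16 and 8.34 in sulindac livers, against 8.05, 7.31, 7.13, 7.34 and 7.17 in chow livers (change 0.75 ± 0.20, adjusted p = 0.033, lost in 5 of the 15 fits that left out 1 mouse). Hlth_1798 lay within the sulindac range and the other 4 chow mice below it. Without the pair, 12 interferon genes rose, where 4.47% of all genes did. Trim30d, Trim12c and Ube2l6, interferon-inducible genes named after their values were seen, rose by 0.79, 0.64 and 0.60 (adjusted p = 0.0156, 0.0162 and 0.00307). None of these 7 interferon-linked genes passed sulindac minus vehicle, where adjusted p lay between 0.28 and 0.997.

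Among 26 acute phase genes, 22 had a positive change, and 1 passed, the fibrinogen chain gene Fga (0.17 ± 0.05, adjusted p = 0.0359, lost in 8 of the 15 fits that left out 1 mouse). Saa1 and Saa2, serum amyloid genes, did not pass: Saa1 lay between 11.04 and 12.31 in sulindac livers, against 11.52, 9.69, 9.57, 9.46 and 11.69 in chow livers. Hlth_1798 and Hlth_1807 were within the sulindac range and the other 3 below it. Without these 2 mice Saa1 and Saa2 changed by 1.92 and 2.08 (adjusted p = 0.000348 and 0.000307), and 9 acute phase genes rose and 1 fell (4.47% and 2.65% of all genes). What sets Hlth_1798 and Hlth_1807 apart was not tested.

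**Figure D4:**
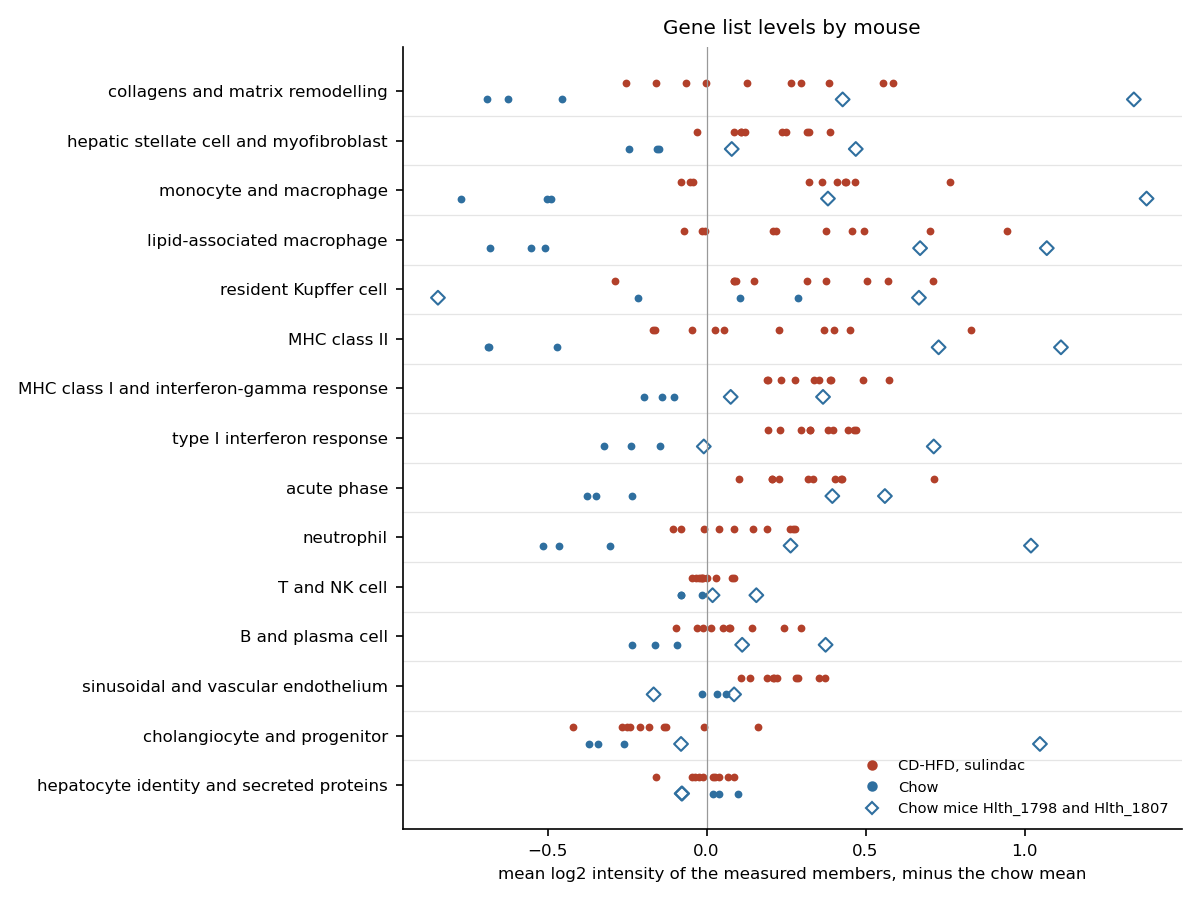
Mean log2 intensity of the measured members of 15 gene lists in each mouse, minus the chow mean, with 10 sulindac livers (red) above 5 chow livers (blue) in each row; diamonds are chow mice Hlth_1798 and Hlth_1807. In the matrix, macrophage, MHC class II and acute phase rows the diamonds lie within or above the range of the red points, and the 3 other chow mice lie to their left.

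Endothelial genes did not split the chow group in the same way. Of 28 measured endothelial genes, 21 had a positive change (median 0.24), and 2 passed, Pecam1 and Oit3 (7.14% against 2.98% of all genes). Without Hlth_1798 and Hlth_1807, 5 rose, where 4.47% of all genes did. The list's mean level lay between 0.11 and 0.37 in sulindac livers and between -0.17 (Hlth_1807) and 0.09 (Hlth_1798) in chow livers, without overlap. In vehicle livers it lay between -0.14 and 0.23 and overlapped the sulindac range. Vehicle livers spanned 4.97 to 6.13 for Pecam1, and neither Pecam1 nor Oit3 passed sulindac minus vehicle. Pecam1, a junction protein of endothelial cells, had values of 5.61, 5.81 and 6.10 in sulindac livers, against 5.55, 5.54, 5.42, 5.06 and 4.67 in chow livers. Sulindac livers lay just above the chow livers, with Hlth_1807 the lowest (change 0.56 ± 0.15, adjusted p = 0.0318, up to 0.115 in fits without Hlth_1807, Hlth_1965 or Hlth_1968 or sulindac 23). Oit3, which is expressed in liver sinusoidal cells, had 8.07, 8.27 and 8.58 in sulindac livers, against 7.83, 7.75, 8.0, 7.79 and 7.10 in chow livers (change 0.62 ± 0.14, adjusted p = 0.0164, and 0.0632 without Hlth_1807).

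More endothelial genes outside the list were found after their values were seen. Clec14a, an endothelial lectin, lay between 6.07 and 6.55 in sulindac livers and 5.21 and 5.80 in chow livers (change 0.93 ± 0.22, adjusted p = 0.0152). Gpihbp1, which anchors lipoprotein lipase to capillaries, rose by 1.05, Adgrl4, an adhesion receptor, by 0.93 and F8, the coagulation factor made by liver endothelium, by 0.75 (adjusted p = 0.0345, 0.0458 and 0.0153). Hlth_1807 was the lowest chow liver for Gpihbp1, Adgrl4 and F8, at 6.18, 5.13 and 5.46. Hlth_1798 lay within the sulindac range for Gpihbp1, at 8.15. Vehicle livers spanned 4.86 to 6.95 for Clec14a and 6.46 to 8.59 for Gpihbp1, and none of these genes passed sulindac minus vehicle. Stab2, a scavenger receptor of sinusoidal cells, did not pass (0.29 ± 0.15, adjusted p = 0.389). Among 17 stellate cell and myofibroblast genes 2 rose (11.8% against 2.98% of all genes that passed). Without Hlth_1798 and Hlth_1807, 5 did, where 4.47% of all genes rose. Colec10, a collectin, changed by 0.79 ± 0.20 (adjusted p = 0.0232), with Hlth_1798 and Hlth_1807 the lowest at 6.54 and 5.97, and did not pass without them (0.29, adjusted p = 0.319). Lhx2, a transcription factor of quiescent stellate cells, was dim at 4.37 to 4.78 in sulindac livers and 4.19 to 4.59 in chow livers. Prg4, a lubricating proteoglycan named after its values were seen, rose by 0.88 ± 0.22 without overlap (adjusted p = 0.0251).

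In the cholangiocyte and progenitor list, 2 of 16 genes fell and none rose (12.5% against 2.98% of all genes), and 1 rose beside 2 that fell without Hlth_1798 and Hlth_1807. The 2 that fell, Kitl and Lad1, were known from earlier results of these data when the list was written, so this share supports nothing. Kitl, the ligand of the receptor Kit, had values of 5.28, 5.38 and 5.54 in sulindac livers, against 5.65, 5.81, 6.38, 5.71 and 6.29 in chow livers. Lad1, a basement membrane protein, had values of 4.41, 4.57 and 4.87, against 5.44, 5.58, 5.13, 5.37 and 5.29 in chow livers. Neither overlapped, with changes of -0.58 ± 0.09 and -0.75 ± 0.10 (adjusted p = 0.000728 and 5.48e-05). Vehicle livers were also low for both, at 4.97 to 5.65 for Kitl and 4.49 to 5.17 for Lad1, and sulindac minus vehicle was 0.08 and -0.17 (adjusted p = 0.779 and 0.471).

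Several liver enzymes changed by large amounts. Cyp2b9, a cytochrome P450 that is higher in female mouse liver and responds to the receptor CAR, had values of 9.39, 9.79 and 11.10 in sulindac livers, against 9.52, 6.38, 6.48, 5.57 and 5.66 in chow livers. Hlth_1798 lay within the sulindac range and the other 4 chow livers far below it. The change was 3.32 ± 0.82, a 9.96-fold higher intensity (adjusted p = 0.0222), and it missed the threshold in fits without any 1 of the other 4 chow mice (adjusted p up to 0.0792). Vehicle livers spanned 4.14 to 10.80, and sulindac minus vehicle did not pass (1.25, adjusted p = 0.545). Slco1a4, an organic anion importer that is also female-biased, rose by 1.21 ± 0.31 (adjusted p = 0.0295), and by 0.61 without Hlth_1798 and Hlth_1807 (adjusted p = 0.294). These were the 2 of 13 measured female-biased genes that passed (15.4% against 2.98% of all genes), and none of 16 male-biased genes did. Of 24 measured CAR and PXR target genes, Cyp3a11 fell slightly (-0.18 ± 0.05, adjusted p = 0.0383), and Cyp2b9 was the other that passed, against 2.98% of all genes. Without Hlth_1798 and Hlth_1807, 1 of the 24 rose and 4 fell, with a median change of -0.27.

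Csad, which makes hypotaurine, the precursor of taurine, from cysteine sulfinic acid, had values of 7.16, 8.07 and 9.23 in sulindac livers, against 8.98, 10.37, 10.71, 10.82 and 10.32 in chow livers. Hlth_1798 had the lowest chow value and lay within the sulindac range (change -2.0 ± 0.41, a 4.0-fold lower intensity, adjusted p = 0.00665). Nat8f5, of the N-acetyltransferase 8 family, had 5.72, 7.10 and 7.67 in sulindac livers, against 7.19, 9.51, 9.60, 9.32 and 8.81 in chow livers, with Hlth_1798 again within the sulindac range (change -1.89 ± 0.37, adjusted p = 0.0039). Dnase2a, an acid DNase of lysosomes, fell by 1.48 ± 0.32 (adjusted p = 0.00938), Col27a1 by 1.56 ± 0.41 (adjusted p = 0.033) and Aatk, a kinase, by 1.06 ± 0.25 (adjusted p = 0.0185). Hlth_1798 had the lowest chow value of each of these 3 genes, at 8.80, 5.72 and 4.67. The changes were larger without Hlth_1798 and Hlth_1807, at -1.78, -2.45 and -1.69.

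Igfbp3, the main carrier of IGF1 in blood, had values of 7.07, 7.60 and 7.97 in sulindac livers, against 5.99, 5.60, 5.99, 5.62 and 7.84 in chow livers. Here Hlth_1807 lay among the sulindac livers (change 1.39 ± 0.28, adjusted p = 0.00593). Casp6, an executioner caspase, had values of 8.46, 8.88 and 9.36 in sulindac livers, against 7.68, 7.40, 7.32, 7.46 and 8.08 in chow livers, without overlap (change 1.31 ± 0.17, adjusted p = 6.78e-05). Pnldc1, a poly(A)-specific exonuclease, rose by 1.81 ± 0.30 without overlap (adjusted p = 0.000818) and was also higher than with aspirin and clopidogrel (1.5, adjusted p = 0.00759, a test that 0.877% of all genes passed). Vehicle livers spanned 5.32 to 7.99 for Pnldc1 and overlapped the sulindac range. Arrdc3, an arrestin-like adaptor, rose by 1.37 ± 0.24 and Stap1, a signal-transducing adaptor, by 1.23 ± 0.22, both without overlap (adjusted p = 0.00151 and 0.00214). Abcd2, a peroxisomal transporter of very long chain acyl-CoA, rose by 1.27 ± 0.31 (adjusted p = 0.0203, up to 0.0731 without Hlth_1804, Hlth_1965 or Hlth_1968). Slc45a3, a sugar transporter, fell by 1.25 ± 0.21 without overlap (adjusted p = 0.00128), and Erdr1 by 1.39 ± 0.39 (adjusted p = 0.0472, lost in 10 of the 15 fits that left out 1 mouse). None of these genes, Igfbp3 to Erdr1, passed sulindac minus vehicle.

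In bile acid metabolism, 4 of 30 measured genes rose and none fell (1.99% and 0.988% of all genes), while the list's median change was -0.01. Without Hlth_1798 and Hlth_1807 the direction turned, with 1 that rose and 3 that fell (4.47% and 2.65% of all genes). Hsd3b7, an enzyme of bile acid synthesis, had values of 11.87, 12.05 and 12.20 in sulindac livers, against 11.72, 11.58, 11.53, 11.58 and 11.84 in chow livers. The groups did not overlap (change 0.40 ± 0.07, adjusted p = 0.00214). Amacr, a racemase of the same pathway, rose by 0.27 ± 0.05 (adjusted p = 0.0055), Abcg8, a sterol exporter, by 0.83 ± 0.21 (adjusted p = 0.0296, up to 0.104 without Hlth_1807 or Hlth_1965), and Slco1a4 was the fourth. Of 21 genes of the urea cycle and amino acid breakdown, 1 rose with all chow mice, and none rose and 3 fell without Hlth_1798 and Hlth_1807. The gene that rose was Agxt, the peroxisomal alanine-glyoxylate aminotransferase. It lay between 10.24 and 11.13 in sulindac livers and 9.09 and 10.24 in chow livers (change 0.89 ± 0.20, adjusted p = 0.0113, and 0.53 without Hlth_1798 and Hlth_1807, adjusted p = 0.127). Cbs, the first enzyme of transsulfuration, rose by 0.66 ± 0.15 without overlap (adjusted p = 0.0117) and was the 1 gene of 29 in choline and methyl metabolism that passed, and 2 rose and 3 fell without Hlth_1798 and Hlth_1807.

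None of 22 lipid droplet genes passed, and 2 rose without Hlth_1798 and Hlth_1807. At 2.98% of all genes, a list of this size with no call is near the background. Plin2, the main coat protein of hepatocyte lipid droplets, had values of 12, 12.25 and 12.42 in sulindac livers, against 12.28, 11.73, 11.81, 11.64 and 12.40 in chow livers, a change of 0.28 ± 0.10 (adjusted p = 0.133) that was 0.53 without Hlth_1798 and Hlth_1807 (adjusted p = 0.000341). Of 18 lipogenic genes, Mlxipl, the carbohydrate response factor ChREBP, fell by 0.36 ± 0.09 (adjusted p = 0.0263, up to 0.104 without Hlth_1804, Hlth_1965 or Hlth_1968). Fasn and Scd1 did not pass, with changes of -0.17 ± 0.38 and 0.14 ± 0.09. Fasn ranged between 9.41 and 11.96 in sulindac livers, against 11.05 to 11.70 in chow livers. None of 19 cholesterol synthesis, 28 PPAR-alpha and fatty acid oxidation, 15 PPAR-gamma and 38 respiratory chain genes passed. In the PPAR-gamma list 12 of 15 changes were positive (median 0.15). Without Hlth_1798 and Hlth_1807, 2 PPAR-gamma genes rose, 2 PPAR-alpha genes fell and 1 respiratory chain gene fell. Apof, an inhibitor of cholesteryl ester transfer protein in human plasma, rose by 0.16 ± 0.04 as 1 of 22 apolipoprotein and lipoprotein genes (adjusted p = 0.0431). Elovl2, an elongase of polyunsaturated fatty acids, and Gpr146, a receptor, were named after their values were seen and rose by 0.52 ± 0.09 and 1.08 ± 0.19 without overlap (adjusted p = 0.00083 and 0.00171).

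**Figure D5:**
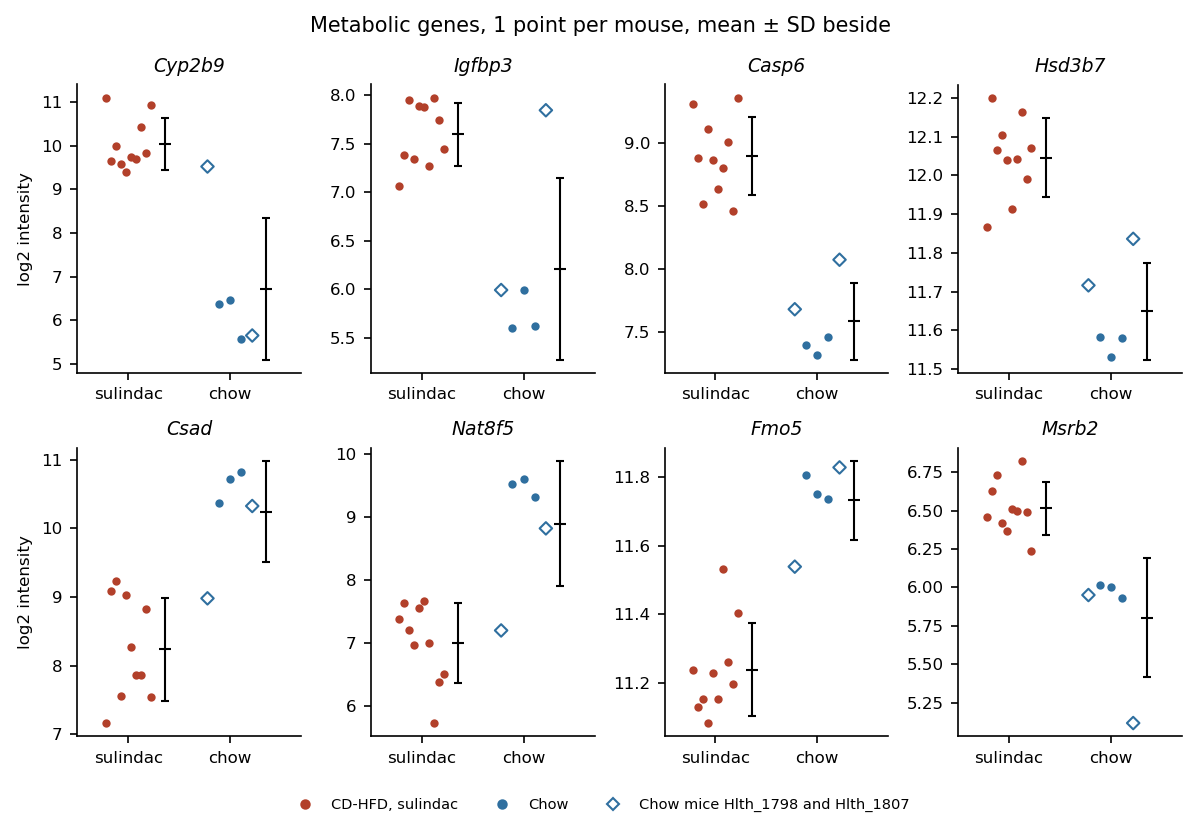
Log2 intensity of 8 metabolic genes, 1 point per mouse, with the mean and SD (black) beside each group; diamonds are chow mice Hlth_1798 and Hlth_1807. Casp6, Hsd3b7, Fmo5 and Msrb2 do not overlap between sulindac and chow livers, whereas Hlth_1798 lies among the sulindac livers for Cyp2b9, Csad and Nat8f5 and Hlth_1807 does for Igfbp3.

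The drug's targets and the enzymes that convert it were looked at separately. Ptgs2, the inducible cyclooxygenase, was near the lower end of the scale and did not pass, at 4.26 to 4.44 in sulindac livers and 4.25 to 4.40 in chow livers (change 0.05 ± 0.03, adjusted p = 0.605). Ptgs1 was not analysed here. None of 28 measured genes of prostanoid synthesis, breakdown and reception passed, where 2.98% of all genes did, and 17 of them were below the median gene in both groups. Without Hlth_1798 and Hlth_1807, 1 of the 28 rose and 1 fell. Hpgd, which inactivates prostaglandins, changed by 0.03 ± 0.13 and Ptges3 by -0.06 ± 0.05.

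Among 13 measured sulfoxide redox enzymes 1 rose and 1 fell (15.4% against 2.98% of all genes). Msrb2, a mitochondrial methionine sulfoxide reductase, had values of 6.24, 6.49 and 6.82 in sulindac livers, against 5.95, 6.01, 6.00, 5.93 and 5.12 in chow livers. The groups did not overlap, and Hlth_1807 was far below the other chow livers (change 0.71 ± 0.14, adjusted p = 0.00339, and 0.53 without Hlth_1798 and Hlth_1807, adjusted p = 0.017). Fmo5, a flavin monooxygenase, had 11.08, 11.21 and 11.53 in sulindac livers, against 11.54, 11.81, 11.75, 11.74 and 11.83 in chow livers, a small gap between the groups (change -0.50 ± 0.11, adjusted p = 0.0113). Neither passed sulindac minus vehicle (0.35 and -0.28, adjusted p = 0.228 for each). Msra, the reductase known to act on sulindac, lay at 10.47 to 10.73 in sulindac livers and 10.49 to 10.63 in chow livers, and its change of 0.01 ± 0.06 turned negative under several settings. Aox1, an aldehyde oxidase, did not overlap between sulindac livers (9.97 to 10.45) and chow livers (10.50 to 10.86) and yet did not pass (-0.40 ± 0.15, adjusted p = 0.162). Fmo1 changed by -0.19 ± 0.15 (adjusted p = 0.619).

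Glucocorticoid-responsive, ribosomal, splicing and proteasome genes were listed after their values were seen and are given as a description. Tsc22d3, the glucocorticoid-induced leucine zipper, had values of 8.96, 9.27 and 9.73 in sulindac livers, against 9.51, 10.70, 10.71, 11.27 and 10.00 in chow livers (change -1.12 ± 0.22, adjusted p = 0.00517). Zbtb16, a transcription factor induced by glucocorticoids, fell by 1.31 ± 0.29 (adjusted p = 0.0129, up to 0.0648 without Hlth_1804 or Hlth_1968), and Fkbp5 did not pass (-1.08 ± 0.33, adjusted p = 0.0729). They were 2 of 19 in the list that passed, both lower (10.5% against 2.98% of all genes), and 2 rose and 5 fell without Hlth_1798 and Hlth_1807. Of 47 ribosome biogenesis genes, 6 fell and 3 rose (19.1% against 2.98% of all genes). Nop16, Nolc1, Lsg1, Utp18, Bop1 and Noc3l, which assemble ribosomal subunits in the nucleolus or release them, fell by 0.92, 0.73, 0.47, 0.48, 0.41 and 0.29. Rcl1, Heatr1 and Taf1b rose by 0.59, 0.58 and 0.25. Of 42 splicing factors 7 fell and 2 rose (21.4%), with Sfpq at -0.44, Snrnp70 at -0.32 and Srsf1 at -0.25. Of 30 proteasome subunits 4 rose and none fell (13.3%), by small amounts (Psmc3 0.21, Psma1 0.20, Psma3 0.12). These lists were made from genes that had already been seen to change, so their shares support nothing.

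Single members of stress and signalling lists also passed, where 2.98% of all genes did, and 1 call in a list of 17 to 24 genes is near that share. Gadd45a, a growth arrest gene induced by DNA damage, had values of 6.05, 7.08 and 7.99 in sulindac livers, against 6.05, 6.10, 5.95, 5.68 and 5.51 in chow livers, and it was the 1 gene of 24 in the p53 list that passed (change 1.08 ± 0.25, adjusted p = 0.015). The lowest sulindac liver lay within the chow range and the other 9 above it. Vehicle livers lay at 5.16 to 6.39, and sulindac minus vehicle was 1.01 (adjusted p = 0.0302). Skil, an inhibitor of SMAD signalling, fell by 0.68 ± 0.16 (adjusted p = 0.0146) as 1 of 17 TGF-beta genes, and by 0.44 without Hlth_1798 and Hlth_1807 (adjusted p = 0.132), where 1 other gene of the list rose. Gsta4, a glutathione transferase for lipid aldehydes, fell by 0.55 ± 0.15 (adjusted p = 0.0467). With Nnt it made 2 of 32 NRF2 and glutathione genes that passed (6.25% against 2.98% of all genes), and 3 rose and 1 fell without Hlth_1798 and Hlth_1807. Mbl2, the mannose-binding lectin, rose by 0.28 ± 0.08 as 1 of 24 complement genes (adjusted p = 0.0409). None of 31 cell cycle genes and none of 29 genes of the endoplasmic reticulum stress response passed with all chow mice, and 2 of each list rose without Hlth_1798 and Hlth_1807. Of the cell cycle genes, 20 were below the median gene in both groups.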

How the data were processed

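RNA from frozen non-tumoral liver of 30 mice was hybridised to 1 Affymetrix HT MG-430 PM array per mouse. The deposited intensity values are the authors' RMA summaries with quantile normalization between arrays, per the submitters' design text and processing notes, and are on a linear scale as the values show; no software version was found in those notes. Over the 15 sulindac and chow arrays their minima were 13.8 to 14.8 per array, their medians 24.1 to 24.6 and their maxima 11773 to 13386, and precision is limited by how many arrays there are. The arrays were thus close in distribution but not identical, and a further quantile normalization was tried.

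Of 45141 probe sets, 104 controls were left out, 28898 had 1 gene symbol, 551 several and 15588 none in GEO's platform annotation, and 28689 of the probe sets with 1 symbol were matched to the RefSeq table of GRCm38.p6. The probe set with the highest mean stood for each of 17097 genes, 7180 of which had several. Groups came from the titles, which give 9 vehicle mice where the design text gives 4. A linear model of group means, on log2 values of the 30 arrays, was fitted in R 4.3.3 by limma 3.58.1 (lmFit, eBayes, 25 residual degrees of freedom), with no covariate and Benjamini-Hochberg adjustment over all genes. The steps were also tested on simulated data.

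Named genes were up to 15 that rose and 15 that fell most among those that passed, where the mean of the brighter group reached 4.90, the median over genes, and without clone names, up to 4 members of each list that passed with the smallest p, and the drug target, sulindac-converting enzymes and genes of earlier interest whatever their p. Other genes given as examples, list members included, were named after their values were seen. The comparison, the lists and the named genes were chosen with earlier results of these data known. Nothing says how mice were housed, so p-values measure the spread between these mice only.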

Additional observations from a re-analysis of the deposited data

Results flagged for a closer look

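Of 124 groups of values checked for 1 sample far from the rest, 11 held such a sample, and chance gives about 1 in 20. Sulindac mouse 15 was the lowest sulindac liver for Dbp, at 5.2866 with the next at 7.7603, and for Nr1d2, at 9.5448 with the next at 10.0918. Sulindac mouse 16 was the highest for the flavin monooxygenase Fmo1, at 11.288 against 10.8346 in the next.

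The other 8 lay in chow livers, 4 in Hlth_1798 and 4 in Hlth_1807. Hlth_1798 was the highest chow liver for Cyp2b9, at 9.5247 with the next at 6.4757, and for Ifih1, at 8.0528 with the next at 7.342. It was the lowest for Csad, at 8.9784 with the next at 10.3231, and for Dnase2a, at 8.7987 with the next at 9.9802. In all 4 genes its value was on the side of the sulindac livers. Hlth_1807 was the highest chow liver for Igfbp3, at 7.8425 with the next at 5.9918, also on the side of the sulindac livers. It was the highest for Lonrf3, at 7.3539 with the next at 6.8212, and the lowest for Msrb2, at 5.1173 with the next at 5.9346, and for Oit3, at 7.0955 with the next at 7.7486, and in these 3 genes it lay farther from the sulindac livers than the other chow livers did.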

How the results depend on the processing

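The 510 genes that passed, 341 higher and 169 lower, became 1614 (981 and 633) with array weights, which were lowest for Hlth_1807 and Hlth_1798 among chow arrays at 0.34 and 0.38, and 1217 (764 and 453) without those mice. Of the 510, 39 changed by at least 1 (23 and 16). Leaving out 1 mouse gave 272 to 732 genes, 176 to 440 higher and 82 to 292 lower. The fewest came without Hlth_1965 (272, 176 higher and 96 lower) or Hlth_1968 (286, 204 and 82), and the most without Hlth_1798 (732, 440 and 292). The other alternatives gave 440 to 661 genes. Of the 510 genes, 192 passed in all 15 such fits. Centring and a second quantile normalization lowered the share of higher genes to 56.5% and 54.0%, against 66.9%, and centring moved the median change of all genes to -0.015.

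Of 58 named genes that passed, 28 did so under each alternative and 26 missed the threshold without at least 1 mouse. The Msra log2 change reversed, at -0.0153 with centring, -0.0174 with a second quantile normalization and between -0.0132 and 0.024 without 1 mouse. Of 1199 list medians, 15 moved by more than the spread, in 5 of 50 lists. The cause of these shifts was not tested. No paired analysis was possible because the groups share no animal number. For 27 genes that passed, the brighter group was below the median gene mean, where signal over background limits the change.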
